A study of Mus musculus with 2 samples.

Results

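The ephrins and their Eph receptors, the Slits and their Robo receptors, and the netrins with their receptors of the Unc5, Dcc and neogenin type were examined in lacZ-marked osteoblastic cells from Ebf2-deficient (Ebf2-/-) and heterozygous (Ebf2+/-) mouse embryos. Members were chosen by gene symbol alone, as genes named Epha, Ephb, Efna, Efnb, Slit, Robo, Ntn or Unc5 with a number or letter, plus Dcc and Neo1, each with at least 1 probe set (a group of short oligonucleotides for a transcript) that carries a single symbol. This gave 38 genes of 18194 on the arrays, read by 78 probe sets. They comprise 13 Eph receptors, 8 ephrins, 3 Slits, 4 Robo receptors, 4 netrins and 6 netrin receptors.

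The cells came from the long bones of the hind limb (tibia and femur) of C57Bl/6 embryos at stage E18.5, were sorted for the Ebf2-lacZ marker, which both genotypes carry, and were grown without passage in medium with 10% serum. Each genotype is represented by 1 Affymetrix mouse genome array, for which the labels give 3 mice without saying whether their RNA was pooled. The Ebf2+/- control cells have an altered Ebf2 copy themselves, and wild-type cells were not analysed here. Per the series title, the study asked how Ebf2 acts on haematopoietic stem cells from outside them. With 1 array per genotype there was no replicate check and no test, so every fold below describes these 2 arrays only.

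Eph receptors are tyrosine kinases that bind ephrins on neighbouring cells. Ephrin-A ligands are held in the membrane by a lipid anchor and ephrin-B ligands span it, so that signals can run into both cells. Slits are secreted proteins read by Robo receptors, and netrins are laminin-related secreted proteins read by Dcc, neogenin and the Unc5 receptors. All these families are known for cues, or receptors of cues, that steer axons or cells. In mouse bone the ephrin-B2 and EphB4 pair is known to carry signals between osteoclasts and osteoblasts.

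The deposited signals are linear intensities from MAS5, the Affymetrix summary algorithm. A probe set was read as above background when it exceeded a floor of 23.8 on the Ebf2-/- array or 17.8 on the Ebf2+/- array, the 95th percentile of 86 probe sets for smell, vomeronasal and taste receptors. The value of a gene is that of its brightest probe set. A gene above the floor on at least 1 array counts as measured, and where 1 array lay under its floor, the floor took its place and the fold is a lower bound, written "at least". Different probe sets of the same gene had log2 ratios (Ebf2-/- over Ebf2+/-) with a pooled SD of 0.44, a factor of 1.36, over 4119 genes. This is an error within the arrays and says nothing of differences between animals or cultures.

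Ebf2 itself could not check the labels: its brightest probe set read 20.6 in Ebf2-/- cells, under the floor, and 24.9 in Ebf2+/- cells, and another read 25.1 in Ebf2-/- and 14.4 in Ebf2+/- cells. Of 7 osteoblast markers on the arrays, 5 were above the floor on both arrays, and the late bone markers Ibsp and Dmp1 lay under the floor on both. Col1a1, with 12784 in Ebf2-/- and 5478 in Ebf2+/- cells (2.33-fold), and Alpl, with 51.8 in Ebf2-/- and 25.4 in Ebf2+/- cells (2.04-fold), were at least 2-fold higher, while Sp7 read 53.3 in Ebf2-/- and 83.7 in Ebf2+/- cells. The 5 measured osteoblast markers had a median log2 ratio of 0.80, and the summed signal of the 7 was 45478 in Ebf2-/- and 26252 in Ebf2+/- cells. The ratio of 3' to 5' signal, a sign of RNA integrity, was 2.79 in Ebf2-/- cells against 1.97 in Ebf2+/- cells for beta-actin, and 1.60 in Ebf2-/- against 1.30 in Ebf2+/- cells for Gapdh. The 11 measured macrophage and leukocyte markers were all at least 2-fold lower in Ebf2-/- cells, with a summed signal over 12 markers of 3763 in Ebf2-/- and 13131 in Ebf2+/- cells. Of 7 measured chondrocyte markers and 7 measured Schwann cell and neuron markers, 5 each were at least 2-fold lower, beside 3.46% of all 11785 measured genes. The part of these differences in the values below was not tested.

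Of the 38 guidance genes 27 were measured, 22 of them on both arrays. Higher signals in Ebf2-/- cells by at least 2-fold were seen for 8 genes: the receptors Ephb4, Ephb3, Epha3 and Epha4, the ligand Efnb1, the secreted Slit2 and Slit3, and the netrin Ntn1. That is 29.6% of the measured members, while 6.30% of all 11785 measured genes were higher by this size. Only the receptor Epha1 was at least 2-fold lower, 3.70% of the members beside 3.46% of all measured genes. On the log2 scale the measured members had a median ratio of 0.11, against 0.03 over all measured genes, and 18 members did not reach 2-fold, 4 of them (Ephb6, Efnb3, Ntn5 and Dcc) with only a lower bound on the fold. Scaling the arrays to spike-in transcripts put the median of all measured genes at -0.14 and that of the members at -0.06. By at least 2-fold, 7 members were then higher and 3 lower, beside 528 and 625 of all 11785 measured genes.

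**Figure D1:**
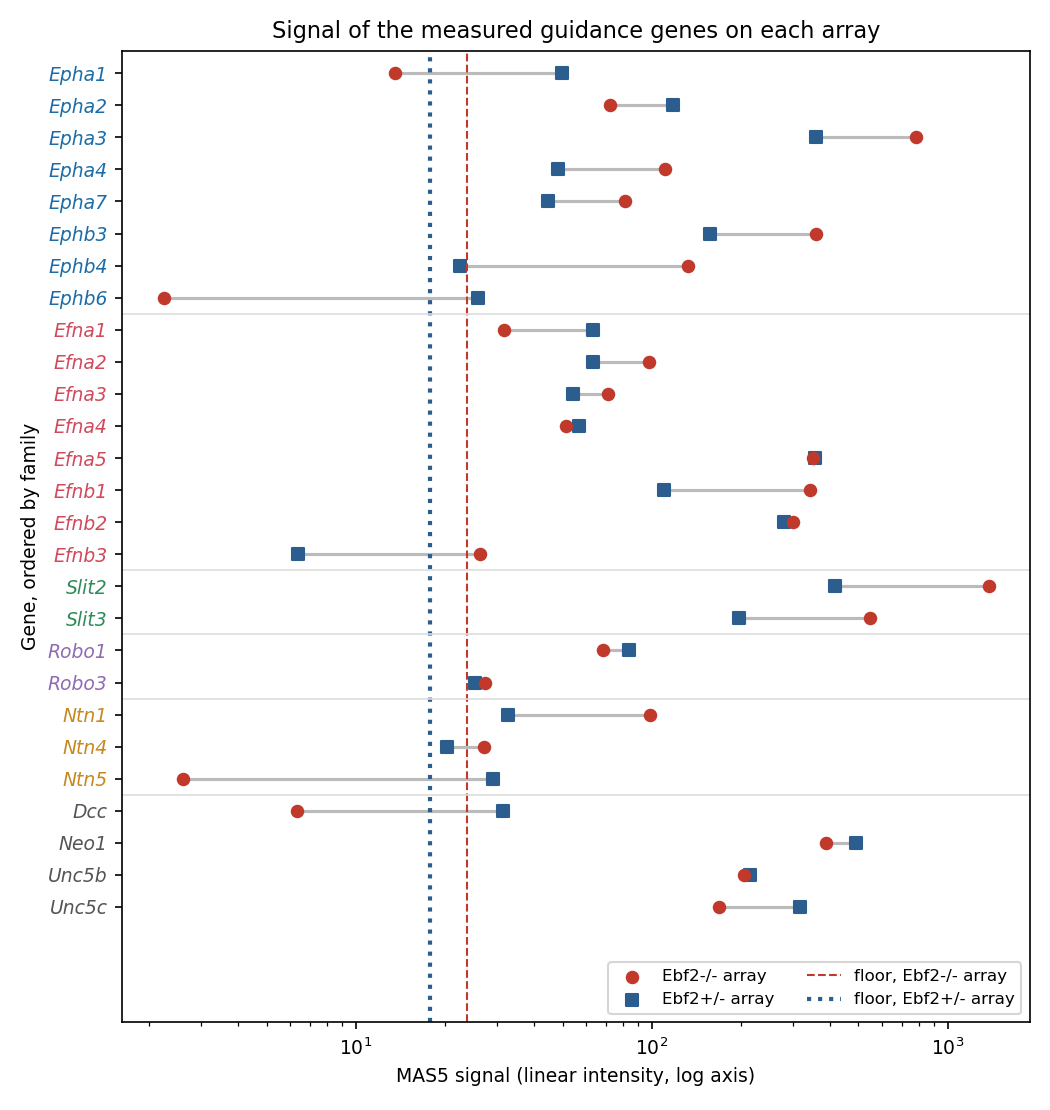
MAS5 signal (linear intensity on a log axis) of the 27 measured guidance genes on the Ebf2-/- array (red circles) and the Ebf2+/- array (blue squares), each by its brightest probe set; label colours and grey lines separate the families, and the dashed and dotted lines are the floors of 23.8 and 17.8. Slit2 lies at 1375 in Ebf2-/- against 415 in Ebf2+/- cells, while Ephb6, Ntn5, Dcc and Epha1 lie under the floor on the Ebf2-/- array and Efnb3 on the Ebf2+/- array.

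Among the receptors of ephrin-B ligands, Ephb4 had the largest ratio of the members above the floor on both arrays by their brightest probe sets. It read 132 in Ebf2-/- cells against 22.5 in Ebf2+/- cells, 5.89-fold higher, and 99.6% of the 10057 genes above the floor on both arrays had a lower ratio. Its Ebf2+/- signal stood just above the floor, and with a pseudocount of 50 added to both signals the log2 ratio was 1.33 in place of 2.56, below the 1.61 of Slit2. As a mean over probe sets Slit2 was also above it, at 2.62 against 2.56. EphB4 is also a marker of venous endothelium. Of 10 endothelial marker genes 8 lay under the floor on both arrays, among them Pecam1 (0.724 in Ebf2-/- and 1.40 in Ebf2+/- cells) and Cdh5 (10.7 in Ebf2-/- and 6.06 in Ebf2+/- cells). Above the floor on 1 array each were Tek, with 46.5 in Ebf2-/- and 3.53 in Ebf2+/- cells, and Kdr, with 3.32 in Ebf2-/- and 33.9 in Ebf2+/- cells. The summed signal of the 10 markers was 103 in Ebf2-/- and 79.9 in Ebf2+/- cells.

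Ephb3, a receptor known for its part in palate and gut patterning in mice, read 359 in Ebf2-/- cells and 157 in Ebf2+/- cells, 2.29-fold higher by its single probe set. With a pseudocount of 50 its log2 ratio was 0.98, just under 2-fold. Ephb6, whose kinase domain is inactive, read 2.24 in Ebf2-/- and 25.9 in Ebf2+/- cells, at least 1.09-fold lower, so that little can be said beyond a faint signal on the Ebf2+/- array alone. Ephb1 lay under the floor on both arrays.

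Receptors of the EphA class went both ways. Epha3 read 783 in Ebf2-/- and 360.0 in Ebf2+/- cells, 2.17-fold higher. Its other 3 probe sets read 256, 192 and 55.3 in Ebf2-/- cells against 110.1, 71.6 and 28.7 in Ebf2+/- cells, from 1.93-fold to 2.68-fold higher, so all 4 were higher in Ebf2-/- cells. With spike-in scaling the log2 ratio of Epha3 was 0.94. Epha4, which binds ephrins of both classes, read 111 in Ebf2-/- and 48.4 in Ebf2+/- cells, 2.29-fold higher. Its 2 other probe sets above the floor gave 72.3 and 63.6 in Ebf2-/- cells against 37.3 and 60.6 in Ebf2+/- cells (1.94-fold and 1.05-fold). The log2 ratio of Epha4 was 0.71 with a pseudocount of 50 and 0.61 as a mean over all 5 probe sets. In that mean, probe sets under the floor on both arrays count as 0.42 by construction.

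Epha7 was higher by less than 2-fold in all 3 probe sets above the floor, which read 81.2, 70.0 and 36.2 in Ebf2-/- cells against 44.8, 35.8 and 26.4 in Ebf2+/- cells. Epha2, an epithelial receptor of ephrin-A1, read 72.1 in Ebf2-/- and 118 in Ebf2+/- cells, 1.64-fold lower. Epha1 read 13.5 in Ebf2-/- cells, under the floor, and 49.8 in Ebf2+/- cells, at least 2.09-fold lower. That value rests on 1 probe set, and the other 2 lay under the floor on both arrays. The log2 ratio of Epha1 was -0.63 with a higher floor and -0.65 with a pseudocount of 50. As a mean over probe sets it was -0.08, but there each of the other 2 counts as 0.42 by construction, whatever it read. Epha5, Epha6, Epha8 and Epha10 lay under the floor on both arrays by their brightest probe sets.

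Over the 8 measured Eph receptors the median log2 ratio was 0.99. By 2-fold or more, 4 were higher (50%, beside 6.30% of all measured genes) and 1 was lower (12.5%, beside 3.46%). Log2 ratios inside the family ran from -1.07 or less for Epha1 to 2.56 for Ephb4. Both ends rest on a signal near or under a floor, and with a pseudocount of 50 they were -0.65 and 1.33. The probe set SD of 0.44 comes from probe sets above the floor on both arrays, so it does not cover the Epha1 bound.

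Of the 10057 genes above the floor on both arrays 593 were at least 2-fold higher, and of the 7 such ephrins 1 was. It was Efnb1, the X-linked ephrin whose loss disturbs skeletal patterning in mice, which read 343 in Ebf2-/- and 110.0 in Ebf2+/- cells, 3.11-fold higher. Its other probe sets read 146 and 132 in Ebf2-/- cells against 51.9 and 43.9 in Ebf2+/- cells, so that all 3 lay between 2.81-fold and 3.11-fold. Its log2 ratio stayed between 1.29 and 1.67 under the 10 alternatives tried. Efnb2, the ephrin paired with EphB4 in bone, read 301 in Ebf2-/- and 280 in Ebf2+/- cells, a 1.08-fold difference. A second probe set of Efnb2 gave 311 in Ebf2-/- against 171 in Ebf2+/- cells (1.81-fold higher), and one near the floor gave 24.7 in Ebf2-/- against 27.8 in Ebf2+/- cells. Its probe sets thus fell on both sides. Efnb3 was seen in Ebf2-/- cells alone, at 26.4 in Ebf2-/- against 6.37 in Ebf2+/- cells, at least 1.48-fold higher.

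The 5 ephrin-A ligands were all above the floor on both arrays, and 0 passed 2-fold. Among the 10057 genes above the floor on both arrays 593 were higher and 304 lower by this size, so 0 of 5 is close to that share. Efna1 came closest, with 31.8 in Ebf2-/- and 63.6 in Ebf2+/- cells, 1.997-fold lower, but its other probe set went the opposite way, with 28.9 in Ebf2-/- and 21.0 in Ebf2+/- cells. Under spike-in, quantile and lowess scaling Efna1 passed 2-fold, with a log2 ratio of -1.17 under the first. Efna2 read 97.7 in Ebf2-/- and 63.6 in Ebf2+/- cells, a 1.54-fold difference. Efna3 read 71.5 in Ebf2-/- and 54.4 in Ebf2+/- cells, but 22.5 in Ebf2-/- and 39.6 in Ebf2+/- cells by another probe set. Efna4 (51.5 in Ebf2-/- and 57.0 in Ebf2+/- cells) and Efna5 (352 in Ebf2-/- and 355 in Ebf2+/- cells) differed by less than the probe set SD. The median log2 ratio was -0.02 over the ephrin-A ligands and 0.57 over the 3 ephrin-B ligands, where it is the bound of Efnb3. Over the ephrin-B ligands above the floor on both arrays it was 0.87.

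**Figure D2:**
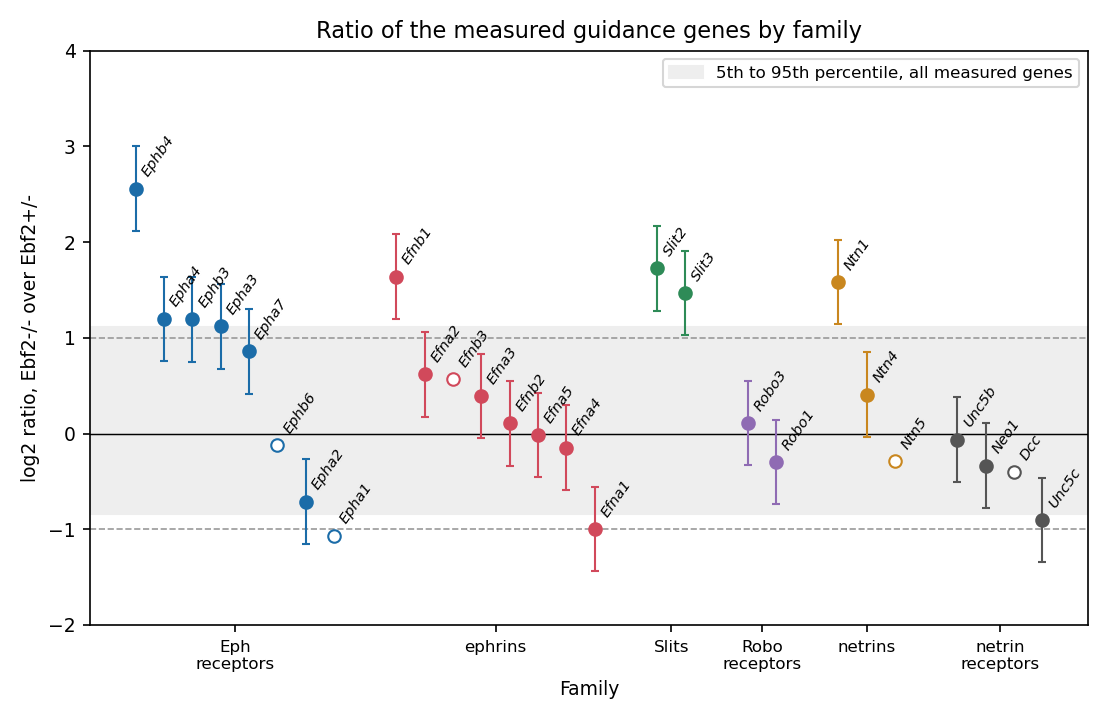
Log2 ratio of signal (Ebf2-/- over Ebf2+/-) of the 27 measured guidance genes by family; filled points were above the floor on both arrays, with bars of 1 pooled SD between probe sets of one gene (0.44), and open points are bounds. The grey band spans the 5th to 95th percentile of all measured genes (-0.84 to 1.11) and dashed lines mark 2-fold; Ephb4, Epha4, Ephb3, Epha3, Efnb1, both Slits and Ntn1 lie above the band, and Epha1, Efna1 and Unc5c below it.

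Both measured Slit ligands were at least 2-fold higher in Ebf2-/- cells, beside 6.30% of all measured genes. Slit2 read 1375 in Ebf2-/- and 415 in Ebf2+/- cells, 3.31-fold higher. Its 2 dimmer probe sets read 162 and 136 in Ebf2-/- cells and lay under the floor in Ebf2+/- cells (17.4 and 15.1), which gives at least 9.09-fold and at least 7.64-fold. All 3 probe sets were therefore higher in Ebf2-/- cells, with a size that depends on the probe set. Slit3 read 546 in Ebf2-/- and 197 in Ebf2+/- cells, 2.76-fold higher by its single probe set. Of the 10057 genes above the floor on both arrays, 98.4% had a lower ratio than Slit2 and 97.6% a lower one than Slit3. Slit1, mainly known from the nervous system, lay under the floor on both arrays (18.2 in Ebf2-/- and 7.13 in Ebf2+/- cells).

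No Robo receptor differed by that size. Robo1, a main Slit receptor, read 68.5 in Ebf2-/- and 84.1 in Ebf2+/- cells, 1.23-fold lower, within the probe set SD. Robo3, which in mammals has lost high-affinity Slit binding, read 27.5 in Ebf2-/- and 25.4 in Ebf2+/- cells, just above both floors. Robo2 (7.01 in Ebf2-/- and 5.53 in Ebf2+/- cells) and Robo4, an endothelial member (0.792 in Ebf2-/- and 1.43 in Ebf2+/- cells), lay under the floor on both arrays. Of the 15 measured partners of Slit and Robo signalling, among them the srGAP proteins and the Ena/VASP proteins, 0 passed 2-fold in either direction. Over all measured genes 6.30% were higher and 3.46% lower by this size, so 0 of 15 is close to that share. The median log2 ratio of these partners was -0.22. Usp33, a deubiquitinase that acts on Robo1, had the largest difference, 99.6 in Ebf2-/- against 184 in Ebf2+/- cells (1.85-fold lower). Gpc1, the glypican that binds Slits, read 352 in Ebf2-/- and 571 in Ebf2+/- cells. Enah, an actin regulator, read 355 in Ebf2-/- and 578 in Ebf2+/- cells.

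The upstream sequences of Slit2, Slit3 and Ephb4 are shown because these members had higher signals in Ebf2-/- cells and Ebf2 is a DNA-binding protein. They are the 250 bases before the gene start in RefSeq (GRCm38.p6), given 5' to 3' on the plus strand, on which all 3 genes lie. The capitals mark the letters CCCNNGGG, the palindromic core of the site known to be bound by EBF proteins, which reads the same on both strands. Slit2 is at chr5:47982905-47983154, Slit3 at chr11:35121206-35121455 and Ephb4 at chr5:137349859-137350108.
Slit2: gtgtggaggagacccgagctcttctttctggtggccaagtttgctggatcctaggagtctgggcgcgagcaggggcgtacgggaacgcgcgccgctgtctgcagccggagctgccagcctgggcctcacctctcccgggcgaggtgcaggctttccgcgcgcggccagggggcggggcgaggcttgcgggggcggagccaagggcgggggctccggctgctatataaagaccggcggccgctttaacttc
Slit3: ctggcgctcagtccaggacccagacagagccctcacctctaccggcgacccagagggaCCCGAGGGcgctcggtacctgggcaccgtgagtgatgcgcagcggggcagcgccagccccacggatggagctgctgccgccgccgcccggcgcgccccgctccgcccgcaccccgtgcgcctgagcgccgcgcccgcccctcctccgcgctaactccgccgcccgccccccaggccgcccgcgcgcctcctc
Ephb4: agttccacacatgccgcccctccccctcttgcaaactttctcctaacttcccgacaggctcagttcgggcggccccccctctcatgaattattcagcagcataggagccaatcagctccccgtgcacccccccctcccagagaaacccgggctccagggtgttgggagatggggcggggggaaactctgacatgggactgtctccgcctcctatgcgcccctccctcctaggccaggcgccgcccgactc

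The core was found in Slit3, starting 192 bases before the gene start, and in neither of the others. With 50 bases after the start included, 1 of 8 windows of members past 2-fold held it, the one of Slit3. The other windows were those of Ephb4, Ephb3, Epha3, Epha4, Efnb1, Slit2 and the lower Epha1, and Ntn1 is not among them. Over the 38 windows of 33 members 8 held it (21.1%), and over all 32851 RefSeq promoter windows of the same 300 bases 4491 did (13.7%). A match is a string of letters and was not tested for binding.

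Of the 3 measured netrins, 1 was at least 2-fold higher (33.3%, beside 6.30% of all measured genes), too few genes for a result about the family. Ntn1, a netrin with reported effects on osteoclast formation in mice, read 98.4 in Ebf2-/- and 32.8 in Ebf2+/- cells, 3.00-fold higher. Its other probe set lay under the floor on both arrays (2.23 in Ebf2-/- and 12.5 in Ebf2+/- cells), and with a pseudocount of 50 the log2 ratio was 0.84. Ntn4, a netrin of basement membranes, read 27.1 in Ebf2-/- and 20.4 in Ebf2+/- cells, with both signals just above the floor. Ntn5 was seen in Ebf2+/- cells alone (2.61 in Ebf2-/- against 29.0 in Ebf2+/- cells, at least 1.22-fold lower), and Ntn3 in neither.

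All 4 measured netrin receptors had the lower signal in Ebf2-/- cells by their brightest probe sets (median log2 ratio -0.37, with Dcc at its bound). Of all 11785 measured genes, 5650 had a log2 ratio below 0 with the floors in place. A further 609, above the floor on the Ebf2+/- array alone, are not in that count, whatever their signals. For them the floor that stood in for the Ebf2-/- signal was at or above the Ebf2+/- signal. The 3 netrin receptors above the floor on both arrays differed by less than 2-fold. Unc5c, which mediates repulsion by netrin-1, differed most of these 3, with 170 in Ebf2-/- and 317 in Ebf2+/- cells (1.87-fold lower). Its second probe set read 96.0 in Ebf2-/- against 259 in Ebf2+/- cells, 2.70-fold lower, so that the mean over both gave a log2 ratio of -1.17. Unc5b, through which netrin-1 acts on macrophages and vessels, read 206 in Ebf2-/- and 215 in Ebf2+/- cells, and 64.5 in Ebf2-/- and 76.7 in Ebf2+/- cells by its other probe set, both differences within the probe set SD.

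Neo1, the gene of neogenin, read 389 in Ebf2-/- and 490.4 in Ebf2+/- cells, but 426 in Ebf2-/- and 402 in Ebf2+/- cells by a second bright probe set, so no direction can be given. Dcc was seen in Ebf2+/- cells alone, at 6.35 in Ebf2-/- against 31.5 in Ebf2+/- cells, at least 1.32-fold lower by 1 of 3 probe sets. With a higher floor its computed log2 ratio was 0.04, which carries no direction. The floor that stood in for the Ebf2-/- signal of Dcc then exceeded its Ebf2+/- signal. Unc5a and Unc5d lay under the floor on both arrays. Schwann cell and neuron markers, from cells in which Dcc and Unc5c are also known, were also lower in Ebf2-/- cells, 5 of 7 measured members by at least 2-fold. Their summed signal over 9 markers was 403 in Ebf2-/- and 1202 in Ebf2+/- cells, with Elavl4 and Snap25 under the floor on both arrays. Their part in the netrin receptor values was not tested, and in such bulk RNA fewer cells of a type and less RNA per cell cannot be told apart.

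**Figure D3:**
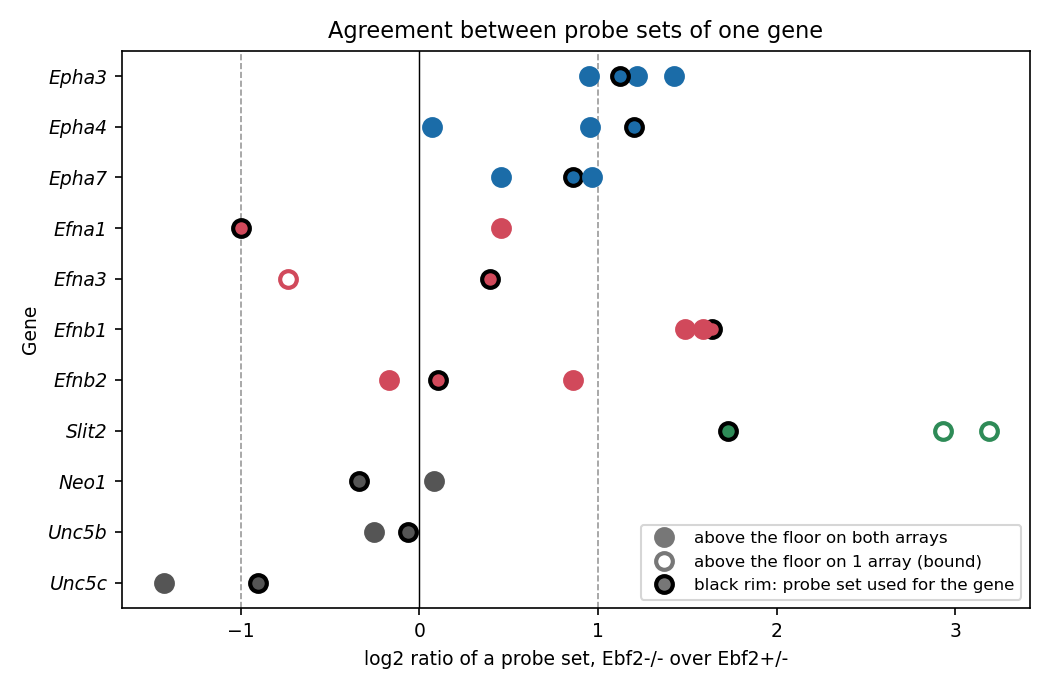
Log2 ratio (Ebf2-/- over Ebf2+/-) of each probe set of the 11 measured guidance genes that have several probe sets above the floor on at least 1 array; filled points were above the floor on both arrays, open points are bounds, a black rim marks the probe set used for the gene, and dashed lines mark 2-fold. Probe sets of Epha3, Epha4, Epha7, Efnb1 and Slit2 all lie right of 0 and those of Unc5b and Unc5c left of it, while Efna1, Efna3, Efnb2 and Neo1 have probe sets on both sides.

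Of the 3 genes past 2-fold with several probe sets above the floor on both arrays (Epha3, Epha4 and Efnb1), all 3 had every such probe set in the same direction. The plot by probe set shows that agreement was close for Efnb1 and looser for Epha4. Ephb3, Ephb4 and Slit3 have 1 probe set each, so their ratios have no such check.

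Partners of the Eph and netrin receptors were compared next. Of 23 measured partners of Eph and ephrin signalling 1 was at least 2-fold higher, the scaffold protein gene Grip2 (38.9 in Ebf2-/- against 2.53 in Ebf2+/- cells, at least 2.18-fold), and 0 were at least 2-fold lower (median log2 ratio 0.05). The share higher, 4.35%, lay near the 6.30% of all measured genes, of which 3.46% were lower. Adam10, the protease that sheds ephrins, read 704 in Ebf2-/- and 732 in Ebf2+/- cells. Sdcbp, the gene of the ephrin-B tail binding protein syntenin, read 1719 in Ebf2-/- and 2940.0 in Ebf2+/- cells (1.71-fold lower), and Inppl1, a lipid phosphatase that binds EphA2, read 59.4 in Ebf2-/- and 114 in Ebf2+/- cells (1.92-fold lower).

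Of 18 measured partners of netrin and neogenin, 0 were lower by 2-fold or more (median log2 ratio 0.36). By this size 3 partners were higher, 16.7% beside 6.30% of all measured genes. They were the neogenin ligands Rgma (60.4 in Ebf2-/- against 24.6 in Ebf2+/- cells, 2.46-fold) and Rgmb (97.5 in Ebf2-/- against 45.2 in Ebf2+/- cells, 2.16-fold), which also act as BMP co-receptors, and Bmp4 (1504 in Ebf2-/- against 506 in Ebf2+/- cells, 2.97-fold). Flrt2, a ligand of Unc5 receptors, read 647 in Ebf2-/- and 954 in Ebf2+/- cells, 1.47-fold lower.

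By role, 4 of 13 measured ligands (30.8%) passed 2-fold upwards and 0 downwards in Ebf2-/- cells (median log2 ratio 0.41). Over all measured genes the shares were 6.30% upwards and 3.46% downwards. Of 14 measured receptors 4 (28.6%) passed 2-fold upwards and 1 (7.14%) downwards (median -0.09). The sign of that receptor median depends on bounds, since it lies between the ratio of Unc5b and the bound of Ephb6. Over receptors above the floor on both arrays the median was 0.11, and over such ligands 0.41. In the semaphorins with their plexin and neuropilin receptors, another guidance family, 3 of 29 measured genes (10.3%) passed it upwards and 2 (6.90%) downwards (median 0.09). Whether the families differ from each other was not tested, since 1 array per genotype gives no spread to test against.

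Of the 11 members under the floor on both arrays by their brightest probe sets, the signals of those probe sets ran from 0.792 to 20.4 in Ebf2-/- and from 0.446 to 16.9 in Ebf2+/- cells. They are Epha5, Epha6, Epha8, Epha10, Ephb1, Slit1, Robo2, Robo4, Ntn3, Unc5a and Unc5d, and no fold is given for them. A dimmer probe set of Epha5 read 6.21 in Ebf2-/- cells and 18.1 in Ebf2+/- cells, just above the floor of the Ebf2+/- array.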

How the data were processed

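Total RNA of sorted, cultured cells was hybridised as biotin-labelled cRNA to 1 array per genotype. Per the submitters' processing notes the authors used MAS5 (in a version not given in the sources used here). Linear intensity per probe set (45101) was deposited. Its trimmed mean (2% off each end) was 100.001 on both arrays, so each array had been scaled to a common target, which hides a shift that most genes share. The number of arrays limits the precision.

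Genotype came from the labels. Symbols came from the platform annotation: 34958 probe sets had 1 symbol, and all 38 member gene IDs were found in RefSeq (GRCm38.p6). Values under the floor were set to it before the log2 ratio was taken. A gene had to reach 2-fold to be counted. No p-value was computed, since each genotype has 1 array. The members and lists were chosen with earlier results of these data known. Every member was to be named, with both signals if measured and by range if not. Partner genes named in the text are those past 2-fold and others chosen after their values were seen. Alternatives were 3 scalings (18 spike-in probe sets, quantile, lowess), 4 floors or pseudocounts, 2 rules for the probe set and 1 for the members. The procedure was tested on simulated data. Changes well past 2-fold were planted there, only in genes above the floor on both arrays, with noise between probe sets alone. The simulation did not cover smaller changes, bounds or differences between animals or cultures. Python 3.11.15, numpy 2.4.6, pandas 2.3.3 and statsmodels 0.14.6 were used.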

Additional observations from a re-analysis of the deposited data

How the results depend on the processing

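Under 10 alternatives 261 values of single guidance genes were recomputed. Of these 243 moved by less than the probe set SD of 0.44 (log2), 18 moved by more and 0 of those past 2-fold changed sign. Many of the values could hardly move. Dropping the floor, or keeping only genes above it on both arrays, leaves the ratio of a gene above both floors as it was. Spike-in scaling shifts every ratio by 0.18, less than this SD. The count of 243 is therefore no measure of stability. Of the 9 genes past 2-fold, 4 (Ephb4, Efnb1, Slit2 and Slit3) stayed past it under each alternative that gave a value; Ephb4 has no value without probe sets ending in _s_at, _x_at or _a_at. The count of genes at least 2-fold higher, 8, was 5 with a pseudocount of 50, which shrinks ratios of low signals, and 7 to 9 otherwise. The count at least 2-fold lower, 1, was 3 with spike-in scaling, 2 with quantile normalization, 2 with lowess scaling, 4 without a floor, and 0 with the higher floor, with the pseudocount and over genes above the floor on both arrays; without a floor, 3 of the 4 rest on signals as low as 2.24 in Ebf2-/- cells (Ephb6), 2.61 (Ntn5) and 6.35 (Dcc). The median log2 ratio of the Slits and Robos, 0.79, was 0.16 with the array median as floor, which admits further dim members. The medians of the Eph receptors (0.56 to 1.16) and of the ephrins (0.07 to 0.39) kept their sign. That of the netrins and their receptors, -0.29, is itself the bound of Ntn5, and it was -0.06 over members above the floor on both arrays. With the higher floor it was 0.04, and as a mean over probe sets 0.14. Both the 0.04 and the 0.14 are values of Dcc and give no direction. The 0.04 was set by the floor that stood in for the Ebf2-/- signal of Dcc. In the mean, a probe set under both floors counts as 0.42 by construction. No paired analysis was possible because there is 1 array per genotype. For the same reason no array could be left out. Signals near the floor limit every ratio of Ephb4, Ephb6, Efnb3, Robo3, Ntn4, Ntn5 and Dcc. Over all measured genes, 742 were higher and 408 lower by 2-fold, against 528 and 625 with spike-in scaling, and 280 and 134 with the pseudocount. These totals were 689 and 434 with quantile normalization, 641 and 518 with lowess scaling, and 997 and 932 without a floor. They were 700 and 325 of 11195 genes with the higher floor, and 593 and 304 of the 10057 above the floor on both arrays. The member counts above are to be read beside these totals.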
